A study of Mus musculus with 7 samples.

Results

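RNA sequencing of TA muscles (tibialis anterior, on the front of the shin and mostly of fast fibres) gave read counts for 10 macrophage, neutrophil and chemokine genes: S100a8, S100a9, Ccl2, Ccl7, Cx3cr1, Trem2, Adgre1, Cd68, Mrc1 and Retnla. They were taken by name, through their Ensembl identifiers, from the 48795 genes of the table, and each had 1 entry. The mice were 6-month-old males, 3 libraries from WT (wild-type) animals and 4 from mir-486 KO animals, in which CRISPR editing had removed the hairpin of miR-486, a muscle-enriched microRNA encoded in an intron of Ank1, from the germ line and so from every cell type. The sample labels give the strain C57BL/6 for WT and FVB N/J for KO, FVB is written in the WT column names, and a common, backcrossed background is described in the methods, so strain and genotype cannot be told apart here. The labels do not say that each library is a separate animal, and p-values then measure only the spread between these libraries.

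Tissue macrophages live between muscle fibres in resting muscle, and monocytes and neutrophils enter from the blood after injury. Chemokines are secreted proteins that draw such cells along a gradient by binding receptors on their surface, and CCL2 and CCL7 both bind CCR2 on monocytes. S100A8 and S100A9 form calprotectin, an abundant cytosolic protein of neutrophils and some monocytes. In whole muscle, fewer cells of a type and less RNA per cell cannot be told apart.

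The neutrophil pair, both chemokines, Cx3cr1 and Trem2 had fewer reads in every KO library than in any WT library, while Adgre1 and Mrc1, which mark tissue macrophages, overlapped between the groups, and Retnla was higher in every KO library than in any WT library. Over all tested genes the groups did not overlap in 11.4% with KO lower and in 11.0% with KO higher. Of the 7 genes with enough reads to be tested, 3 were lower in KO at an adjusted p under 0.05 (S100a9, Trem2 and Cx3cr1), beside 1.85% of the 14002 genes tested. In the direction of higher expression 0 of the 7 passed, beside 0.964% of all tested genes, with 1 (Retnla) at an unadjusted p under 0.05, 1 by DESeq2 and 1 by limma-voom. S100a9, Trem2 and Cx3cr1 reached the filter's level, set by a minimum count of 10, in the 3 WT libraries only, and the filter asked for 3 such libraries, so each could enter the test only by being higher in WT. S100a8, Ccl2 and Ccl7 reached that level in 2 WT libraries and no KO library and were not tested. Without a low-count filter, 6 of the 10 genes were lower in KO, beside 1.44% of 25235 genes, and 1 (Retnla) was higher, beside 0.765%. The 10 genes were chosen with earlier results of these data known, so setting their counts beside these shares is no test of the set.

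**Figure D1:**
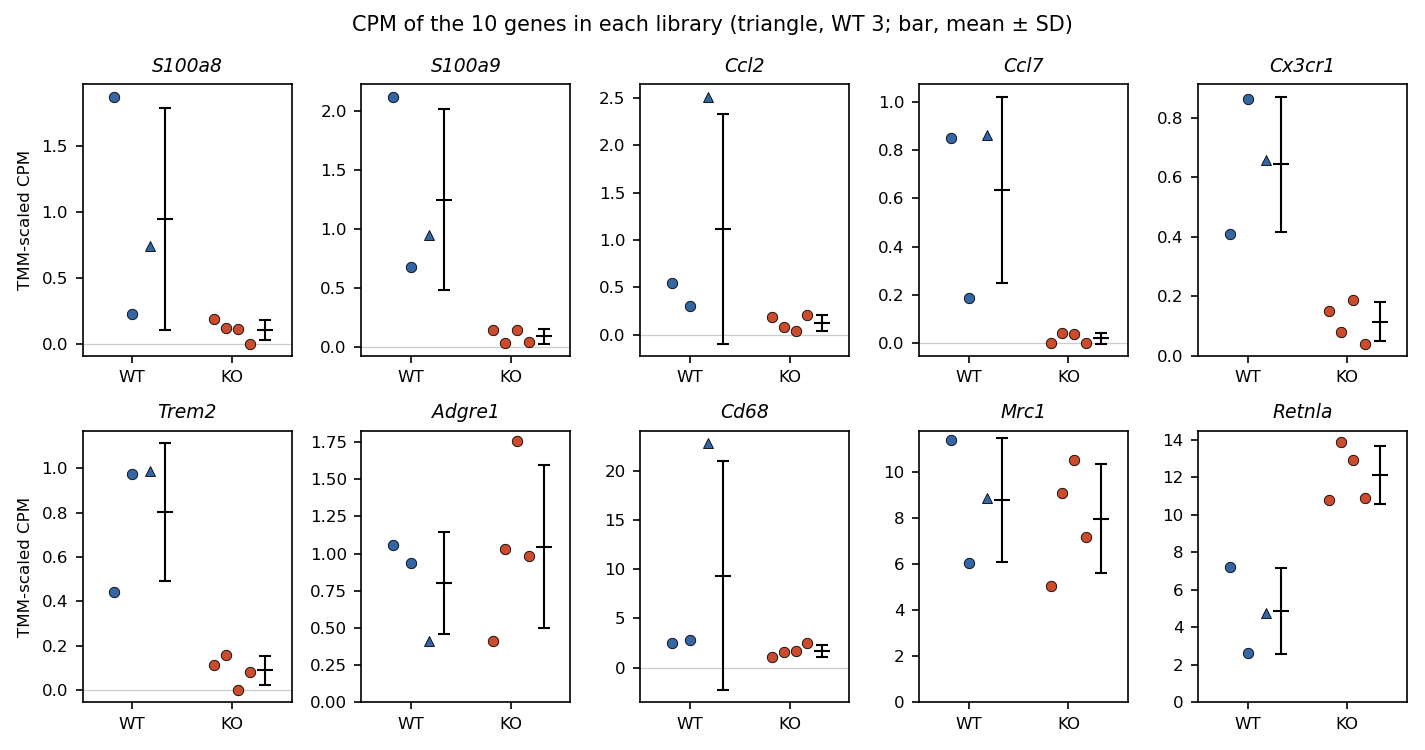
TMM-scaled CPM (read counts scaled to a common library size, vertical axes) of the 10 genes in 3 WT and 4 KO libraries; each point is 1 library, the triangle is WT 3, and the bar gives mean ± SD. The KO points lie below every WT point for S100a8, S100a9, Ccl2, Ccl7, Cx3cr1 and Trem2, overlap WT for Adgre1, Cd68 and Mrc1, and lie above WT for Retnla.

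Gene counts per library ran from 23839577 to 28168275, so that 1 read is about 0.04 CPM (read counts scaled by TMM to a common library size) and most of these genes rest on few reads. WT 3 stood apart from the other 6 libraries: its correlation with them over tested genes was 0.944 to 0.958, against 0.982 to 0.996 among the others, and mitochondrially encoded genes took 22.45% of its gene counts, against 13.03% to 17.94%. Results were therefore also computed without it. Fast-fibre markers, the defining genes of TA muscle, were abundant in all libraries, with 130500 to 166500 CPM over the 8 listed. The host gene Ank1 (chr8:22974844-23150497) had 277 ± 18.8 CPM in WT and 258 ± 13.1 in KO (SD, n = 3 and 4) with an edgeR adjusted p of 0.637, and its counts do not measure the deleted hairpin.

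S100a8 and S100a9 are neighbours on chromosome 3, on opposite strands. S100a8 (chr3:90668978-90670035, GRCm38) had 55, 6 and 18 reads in WT 1, WT 2 and WT 3, and 5, 3, 3 and 0 in KO libraries 1 to 4. The counts were highest in WT 1, and WT 2 lay within 1 read of KO 1. In CPM this was 0.948 ± 0.845 in WT (SD, n = 3) and 0.105 ± 0.0778 in KO (n = 4). A fit without the low-count filter gave a log2 fold change of -3.10 ± 0.72 (SE), at an edgeR adjusted p of 0.0396. By counting alone, the 79 WT and 11 KO reads give a WT to KO ratio of 9.21 per effective library size, with an exact 95% interval of 4.88 to 19.2 that covers counting error only. Left out of that fit, WT 1 took the value to -2.08 (adjusted p = 0.184). The call was also lost without any of the 4 KO libraries, at adjusted p from 0.096 to 0.109. With all 7 libraries it held with DESeq2 (adjusted p = 0.00915). It was lost with robust shrinkage in edgeR (0.0838), limma-voom (0.0985) and a replicate block in edgeR (0.102). In the filtered fit that block left 0 of 14002 genes called, so a call lost under it is not particular to 1 gene.

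S100a9 (chr3:90692632-90695721), the partner of S100a8 in calprotectin, had 62, 18 and 23 reads in WT libraries 1 to 3 and 4, 1, 4 and 1 in KO libraries 1 to 4. WT 1 was again highest, and the lowest WT library had more than 4 times the reads of the highest KO library. The means were 1.25 ± 0.765 CPM in WT and 0.0952 ± 0.0632 in KO (SD, n = 3 and 4). KO against WT, this was a log2 fold change of -3.63 ± 0.58 (SE, 95% interval -4.96 to -2.30, edgeR adjusted p = 0.0216). Without WT 3 it was -3.79 (adjusted p = 0.00301). Without KO 1, KO 2, KO 3 or KO 4 the adjusted p was 0.0736, 0.0814, 0.081 or 0.0821, with fold changes between -3.92 and -3.39. With all 7 libraries S100a9 passed in 6 of 7 alternatives, but not with a replicate block in edgeR (adjusted p = 0.177).

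Promoter sequences were available from RefSeq for 7 of the 10 genes, as the 250 bases before and 50 after the annotated start in GRCm38.p6, the C57BL/6J reference. Those of S100a8 (chr3:90668821-90669120, plus strand) and S100a9 (chr3:90695672-90695971, minus strand) are shown because the pair moved together. Capitals mark TATAAA, the core of the TATA box, and GAGGAA, a core bound by the myeloid factor PU.1, on either strand, the latter therefore also as TTCCTC.

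S100a8: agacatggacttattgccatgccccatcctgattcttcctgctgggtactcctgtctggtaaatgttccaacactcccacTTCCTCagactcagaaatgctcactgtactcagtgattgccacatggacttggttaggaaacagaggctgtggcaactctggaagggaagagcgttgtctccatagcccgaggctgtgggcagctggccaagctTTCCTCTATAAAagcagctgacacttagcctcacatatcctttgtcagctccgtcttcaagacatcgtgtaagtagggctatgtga
S100a9: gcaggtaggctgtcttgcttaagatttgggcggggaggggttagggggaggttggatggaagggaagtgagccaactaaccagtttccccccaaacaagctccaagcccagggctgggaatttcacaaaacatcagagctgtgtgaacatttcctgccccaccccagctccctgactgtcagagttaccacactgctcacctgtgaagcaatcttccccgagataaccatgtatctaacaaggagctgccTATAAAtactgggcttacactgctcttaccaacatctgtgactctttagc

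S100a8 holds TATAAA 30 bases before the start, abutting 1 of its 2 TTCCTC words. S100a9 holds TATAAA at the annotated start itself and no GAGGAA on either strand. Of 32851 promoters of the same length, 13.6% hold TATAAA and 28.3% hold GAGGAA on either strand, so neither word is rare. A match is a description of the letters and no evidence of a bound factor.

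Of the other 17 genes of a 19-gene neutrophil list, 15 had reads, and in the fit without the low-count filter 13 had fold changes below 0 and 2 above, most on few reads, with 1 past the threshold. Several genes of that list were at or near 0 in both groups: Elane and Mcemp1 had no read, and Mpo, Ngp, Ltf, Camp and Ly6g had at most 2 reads in any library. What these low counts mean for the number of neutrophils in the muscle was not tested. Mmp8, a collagenase stored in neutrophil granules, had 8, 11 and 5 reads in WT and 0, 1, 0 and 1 in KO. It was the 1 gene that passed in that fit (log2 fold change -3.62, edgeR adjusted p = 0.0342), and it passed without WT 3 (-3.82, adjusted p = 0.00101) but not without WT 1 (adjusted p = 0.0634), WT 2 (0.0929) or any KO library (0.081 to 0.119). Cxcr2, the neutrophil chemokine receptor, had 10, 4 and 7 reads against 2, 1, 3 and 1, and Csf3r, the receptor for G-CSF, had 18, 10 and 23 against 7, 8, 5 and 7. Neither passed without the filter (log2 fold changes -1.85 and -1.24, edgeR adjusted p = 0.185 and 0.171). In both, every KO library lay below every WT library, as in 11.4% of all tested genes. The groups also did not overlap in Retnlg (7, 2 and 2 reads against 0, 1, 0 and 1) and Prtn3 (1, 1 and 1 against 0, 0, 0 and 0). These 2 rest on very few reads and did not pass (edgeR adjusted p = 0.277 and 0.399). Lcn2 (lipocalin 2, also made by cells outside the neutrophil lineage) had 1.48 CPM in WT and 1.53 in KO, with a log2 fold change of 0.06 (adjusted p = 0.93). Mmp9 (gelatinase B) lay on the other side, at 14, 11 and 8 reads in WT and 13, 43, 38 and 33 in KO, with a log2 fold change of 1.59 that did not pass (adjusted p = 0.0937). The summed level of the 19 genes was 4.28 to 7.88 CPM in WT and 2.82 to 4.56 in KO, and the groups overlapped.

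Ccl2 and Ccl7 lie next to each other on chromosome 11. Ccl2 (chr11:82035571-82037453), the main monocyte attractant, had 16, 8 and 61 reads in WT libraries 1 to 3 and 5, 2, 1 and 5 in KO libraries 1 to 4. WT 3 alone held 61 of the 85 WT reads. The means were 1.12 ± 1.21 CPM in WT and 0.128 ± 0.0820 in KO (SD, n = 3 and 4). Unfiltered, edgeR gave a log2 fold change of -3.02 ± 0.70 (SE) at an adjusted p of 0.0398, and without WT 3 it was -1.70 (adjusted p = 0.0489), a difference of more than 2-fold that rests on that library. The counting ratio of WT to KO was 8.38 (exact 95% interval 4.65 to 16.4, counting error only). Leaving out KO 1, KO 2, KO 3 or KO 4 gave adjusted p of 0.111, 0.127, 0.122 and 0.0918. With every library the call held with DESeq2 (adjusted p = 0.00805). It was lost with robust shrinkage in edgeR (0.0947), limma-voom (-1.81, adjusted p = 0.0899) and a replicate block in edgeR (0.128).

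Ccl7 (chr11:82045712-82047525), which attracts monocytes through the same receptor, had 25, 5 and 21 reads in WT libraries 1 to 3 and 0, 1, 1 and 0 in KO libraries 1 to 4. WT 2 was the lowest WT library for this gene, as for S100a8, S100a9 and Ccl2, yet stayed above KO. The means were 0.635 ± 0.387 CPM and 0.0193 ± 0.0223 (SD, n = 3 and 4). The unfiltered edgeR fit put the log2 fold change at -4.70 ± 0.81 (SE, adjusted p = 0.00813). It passed with each of the 7 libraries left out in turn, between -5.16 and -4.34. With every library it passed in 5 of 6 alternatives, but not with a replicate block in edgeR (-4.32, adjusted p = 0.0607). The 51 WT and 2 KO reads give a ratio of 32.7 with an exact 95% interval from 8.60 to 277, so its size is poorly fixed by counting.

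**Figure D2:**
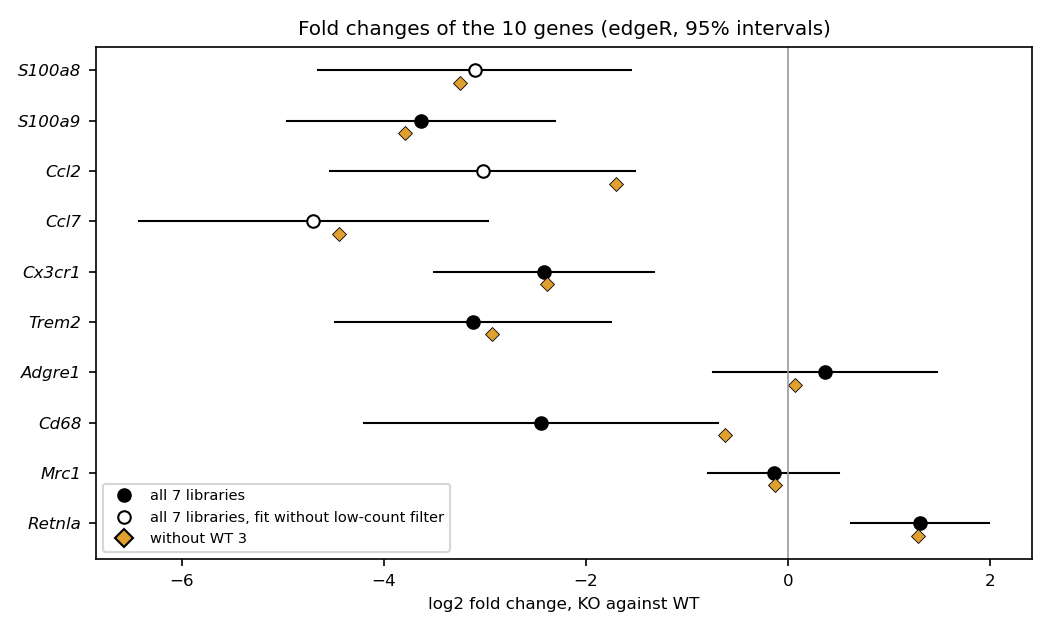
Log2 fold change of KO against WT (horizontal axis) for the 10 genes with 95% intervals from edgeR; filled circles are tested genes, open circles are genes fitted only without the low-count filter, and diamonds are values without WT 3. Cd68 moves from -2.45 to -0.63 and Ccl2 from -3.02 to -1.70 without WT 3, and the other 8 move by less.

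Of the 18 other CC ligands on the list, 14 had reads and could be fitted without the low-count filter, as Ccl2 and Ccl7 were. In that fit 7 had fold changes below 0 and 7 above, with 0 past the threshold. Of 20 CC ligands on the list 8 were tested and 0 passed in either direction (0 higher and 1 lower at an unadjusted p under 0.05, 0 past the threshold without WT 3), with a median log2 fold change of -0.10 beside -0.02 over all tested genes. Ccl11 (eotaxin), with the most reads of the list, had 310, 410 and 373 reads in WT and 387, 392, 451 and 338 in KO, with a log2 fold change of 0.15 (adjusted p = 0.619). Ccl6 and Ccl9, made by macrophages, had fold changes of -0.34 and -0.26 on the log2 scale (adjusted p = 0.685 and 0.716). Ccl12, a mouse relative of Ccl2 that also binds CCR2, had 5, 5 and 3 reads in WT and 1, 0, 3 and 0 in KO and was not tested. In CPM each KO library lay below each WT library, as in 11.4% of all tested genes, a share that does not cover genes with so few reads. Its log2 fold change without the filter was -1.92 (edgeR adjusted p = 0.369). Among 16 CXC, CX3C and XC ligands 6 were tested and 0 passed, with 0 higher and 1 lower at an unadjusted p under 0.05. That 1 was Cxcl12, which holds stem cells and leukocytes in their niches through CXCR4, with a log2 fold change of -0.69 (118 against 73.7 CPM, adjusted p = 0.0677). It passed without WT 3, at -0.46 (adjusted p = 0.00588), where 6.55% of 14187 tested genes were lower in KO.

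Cx3cr1 (chr9:119901616-120069879), the receptor for fractalkine (Cx3cl1) and a marker of patrolling monocytes and of some tissue macrophages, had 12, 23 and 16 reads in WT libraries 1 to 3 and 4, 2, 5 and 1 in KO libraries 1 to 4. WT 1 was the lowest WT library here, the reverse of S100a8. The means were 0.644 ± 0.227 CPM in WT and 0.114 ± 0.0662 in KO (SD, n = 3 and 4). Expression in KO fell by 2.42 on the log2 scale (SE 0.48, 95% interval -3.50 to -1.33, edgeR adjusted p = 0.0386), and it was -2.39 without WT 3 (adjusted p = 0.0176). The call was lost without WT 2 (-2.13, adjusted p = 0.101) and without each KO library (adjusted p 0.0941 to 0.124). With all 7 libraries it held in 6 of 7 alternatives, but not with a replicate block in edgeR (adjusted p = 0.265). An unnamed gene on the other strand shares 78 exonic bases with Cx3cr1, and with the strand setting of the counts unknown those reads may belong to either. Cx3cl1, the ligand, had 1.30 CPM in WT and 1.17 in KO with a log2 fold change of -0.15 (adjusted p = 0.745).

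Chemokine receptors were 22 on the list, 9 were tested, and 1 besides Cx3cr1 passed. Ackr3, a scavenging receptor for CXCL12 found on stromal and endothelial cells, had 484, 396 and 336 reads in WT and 586, 678, 695 and 572 in KO, and rose by 0.71 on the log2 scale (15.1 to 24.6 CPM, edgeR adjusted p = 0.0256). It was higher in 4 of 4 KO libraries than in any WT library, and passed without WT 1 or WT 3 but not without WT 2 (adjusted p = 0.0716) or any KO library (0.0668 to 0.0984). Ccr2, the receptor for CCL2 and CCL7, had 63, 26 and 33 reads in WT and 13, 13, 39 and 14 in KO, a log2 fold change of -0.97 that did not pass (adjusted p = 0.269). Ackr1, which presents chemokines on venular endothelium, had a log2 fold change of -1.03 (adjusted p = 0.0769) and passed without WT 3 (-0.98, adjusted p = 0.0435).

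**Figure D3:**
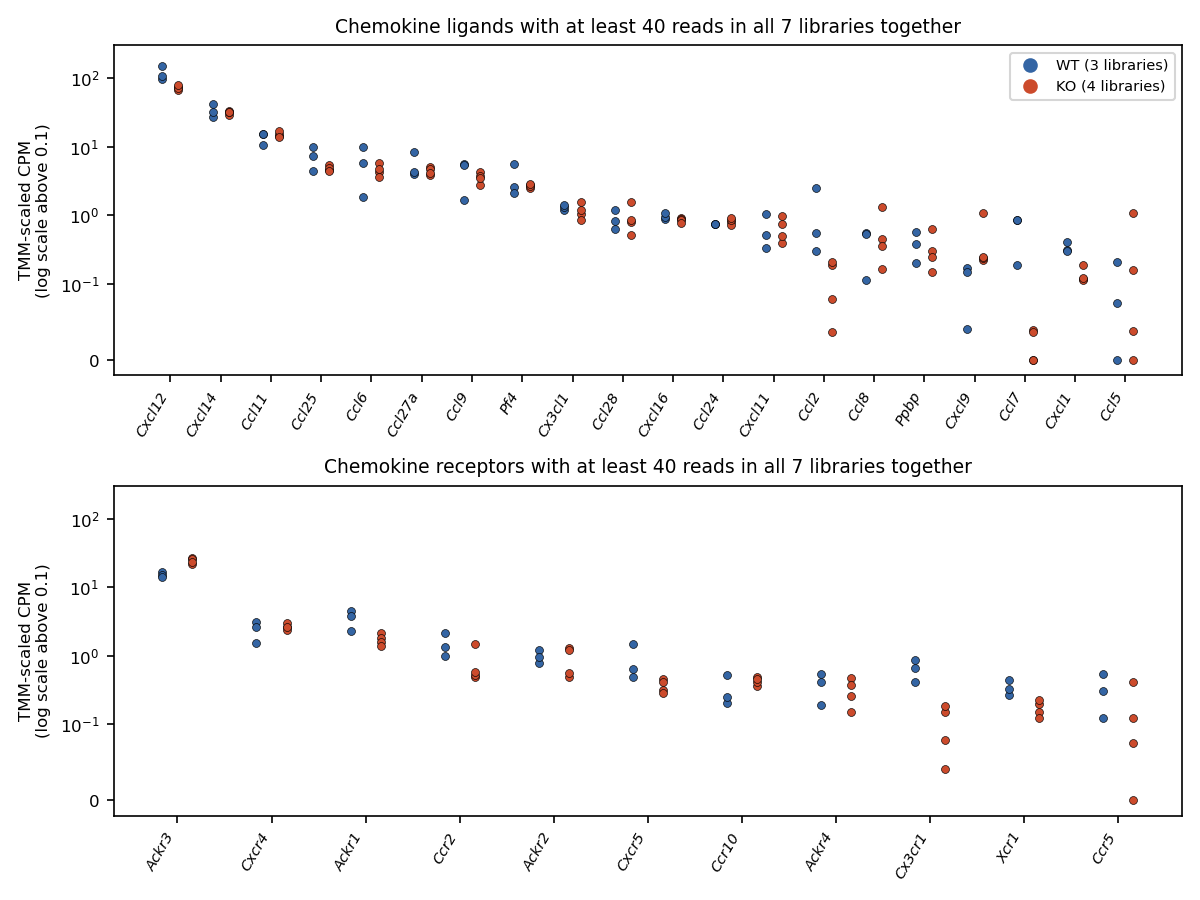
TMM-scaled CPM (vertical axis, logarithmic above 0.1 and linear below) of chemokine ligands and receptors with at least 40 reads over the 7 libraries; each point is 1 library, WT to the left and KO to the right for each gene. Ccl2, Ccl7, Cxcl1, Cxcl12, Cxcr5, Cx3cr1, Xcr1 and Ackr1 separate downwards in KO, Cxcl9 and Ackr3 separate upwards, and the others overlap. Over all tested genes, 11.4% separate downwards and 11.0% upwards. Among the named genes only Cx3cr1 and Ackr3 passed the edgeR test, and Ccl2 and Ccl7 passed only in the fit without the low-count filter. Cxcl1, Xcr1 and Cxcl9 were not tested and did not pass in that fit (edgeR adjusted p = 0.244, 0.404 and 0.251).

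Trem2 (chr17:48346401-48354147), a lipid-sensing receptor of macrophages, osteoclasts and microglia that signals through the adaptor encoded by Tyrobp, had 13, 26 and 24 reads in WT libraries 1 to 3 and 3, 4, 0 and 2 in KO libraries 1 to 4. The groups did not overlap. The means were 0.802 ± 0.311 CPM in WT and 0.0885 ± 0.0669 in KO (SD, n = 3 and 4). In KO, Trem2 differed by a log2 fold change of -3.12 ± 0.60 (SE, 95% interval -4.48 to -1.75, edgeR adjusted p = 0.0356), and -2.93 without WT 3 (adjusted p = 0.0142). Without WT 2 it was -2.93 (adjusted p = 0.0869), and without KO 1 to KO 4 in turn the adjusted p was 0.109, 0.0892, 0.0851 and 0.118. With all 7 libraries Trem2 passed in 6 of 7 alternatives, but not with a replicate block in edgeR (adjusted p = 0.265).

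The partners and companions of Trem2 had smaller differences. Tyrobp had 66, 40 and 106 reads in WT and 42, 59, 58 and 41 in KO (log2 fold change -0.47, adjusted p = 0.475), and Syk, the kinase downstream, -0.14 (adjusted p = 0.815). Of 13 genes listed for TREM2 signalling and lipid-handling macrophages, 10 were tested and Trem2 alone passed, with a median log2 fold change of -0.35. Gpnmb and Spp1, which lipid-laden macrophages express highly, had -0.49 (adjusted p = 0.452) and 0.69 (adjusted p = 0.528). Apoe, which encodes a lipoprotein that TREM2 binds, had 32.1 CPM in WT and 36.6 in KO and did not pass (log2 fold change 0.19, adjusted p = 0.548), but did without WT 3 (0.42, adjusted p = 0.0191). Cd36, a fatty acid transporter that muscle fibres and endothelium also express, had 263 against 397 CPM (log2 fold change 0.60, adjusted p = 0.0856) and passed without WT 3 (0.48, adjusted p = 0.0175). Fabp5, a fatty acid carrier, had a log2 fold change of -1.05 (adjusted p = 0.146).

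The promoters of Trem2 (chr17:48346151-48346450, plus strand) and Cx3cr1 (chr9:120068247-120068546, minus strand) are shown with the same marks, as the other tested genes that were lower in KO.

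Trem2: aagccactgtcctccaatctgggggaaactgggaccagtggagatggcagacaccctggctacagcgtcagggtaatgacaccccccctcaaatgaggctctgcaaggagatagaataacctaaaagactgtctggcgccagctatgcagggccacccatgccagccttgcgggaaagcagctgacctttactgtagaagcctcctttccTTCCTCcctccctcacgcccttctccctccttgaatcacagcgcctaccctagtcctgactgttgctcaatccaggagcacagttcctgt
Cx3cr1: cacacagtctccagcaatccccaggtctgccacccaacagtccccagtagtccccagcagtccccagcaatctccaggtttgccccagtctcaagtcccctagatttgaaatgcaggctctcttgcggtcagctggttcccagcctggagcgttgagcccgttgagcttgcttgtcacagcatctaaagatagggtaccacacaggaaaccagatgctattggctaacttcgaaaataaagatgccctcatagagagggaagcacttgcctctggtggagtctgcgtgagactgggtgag

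Trem2 holds 1 TTCCTC word, 40 bases before the start, and the AP-1 word TGANTCA 9 bases before it, found in 7.81% of promoters on either strand. The Cx3cr1 window holds neither marked word, no AP-1 word and no C/EBP word (TTNNGNAA, in 40.7% of promoters) on either strand. The 4 genes lower in KO whose promoters are shown therefore hold no marked word in common.

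The general macrophage markers did not move with Trem2 and Cx3cr1. Adgre1 (chr17:57358691-57483527), which encodes the F4/80 antigen, had 31, 25 and 10 reads in WT libraries 1 to 3 and 11, 26, 47 and 24 in KO libraries 1 to 4. The groups overlapped, at 0.4115 to 1.058 CPM in WT and 0.4135 to 1.756 in KO, with KO 3 above every WT library. The means were 0.803 ± 0.344 CPM in WT and 1.05 ± 0.550 in KO (SD, n = 3 and 4). The log2 fold change was 0.37 ± 0.48 (SE, 95% interval -0.74 to 1.48, edgeR adjusted p = 0.681). Without KO 3 it was -0.0041 (adjusted p = 0.998), so its sign rests on that library.

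Cd68 (chr11:69664213-69666153), which encodes a lysosomal membrane protein of phagocytes, had 72, 75 and 553 reads in WT libraries 1 to 3 and 30, 39, 44 and 61 in KO libraries 1 to 4. WT 3 had more than 7 times the reads of any other library, and KO 4 lay within the range of WT 1 and WT 2 in CPM. The means were 9.34 ± 11.6 CPM and 1.71 ± 0.579 (SD, n = 3 and 4). The log2 fold change of -2.45 ± 0.77 (SE) did not pass (edgeR adjusted p = 0.133), and it was -0.63 without WT 3 (adjusted p = 0.165). The 3 genes most like Cd68 over the 7 libraries were Bmp1, Emsy and Rcan1 (Pearson r of log2 CPM 0.993 each, a description that rests on the WT 3 value).

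Of the 20 general macrophage markers 19 were tested and 0 passed in either direction with edgeR (0 higher and 2 lower at an unadjusted p under 0.05, Cd68 and Cd14, and 0 without WT 3), with a median log2 fold change of -0.11. Csf1r, the receptor that macrophages need to survive, had 9.69 CPM in WT and 9.63 in KO (log2 fold change -0.01, adjusted p = 0.993). Lyz2 (lysozyme) had 29.3 against 25.2 CPM (-0.22, adjusted p = 0.622), and the complement genes C1qa, C1qb and C1qc had log2 fold changes of -0.16, -0.13 and 0.25 (adjusted p = 0.717, 0.824 and 0.596). The summed level of the list was 65.1 to 137.7 CPM in WT and 64.6 to 102.6 in KO, the highest value being WT 3. Fcer1g (171 reads in WT 3, 39 to 67 in the other WT libraries) and Lgals3 (275 against 75 and 96) were also highest in WT 3. The part of that library in the results was not tested beyond leaving it out.

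Csf1, the ligand of CSF1R, was the 1 growth factor gene that passed. It had 397, 280 and 389 reads in WT and 156, 147, 168 and 166 in KO, without overlap, and fell by 1.11 on the log2 scale (13.4 to 6.202 CPM, SE 0.16, edgeR adjusted p = 0.0175). The call held with each WT library left out and was lost without each KO library (adjusted p 0.0645 to 0.0765). Il34, the other ligand of that receptor, had 3.59 CPM in WT and 3.77 in KO (log2 fold change 0.07, adjusted p = 0.859). Csf2rb, the shared receptor chain for GM-CSF and IL-3, had a log2 fold change of -1.11 (adjusted p = 0.201). Of 8 growth factor and receptor genes 5 were tested, 1 was lower and 0 were higher, and Csf2 and Csf3 had no read in any library.

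Mrc1 (chr2:14229392-14332057), which encodes the mannose receptor CD206 of resident and alternatively activated macrophages, had 335, 161 and 216 reads in WT libraries 1 to 3 and 135, 229, 282 and 175 in KO libraries 1 to 4. The highest value was in WT and the lowest in KO, and the others interleaved. The means were 8.79 ± 2.70 CPM in WT and 7.98 ± 2.37 in KO (SD, n = 3 and 4), with a log2 fold change of -0.14 ± 0.28 (SE, 95% interval -0.79 to 0.51, edgeR adjusted p = 0.795), whose sign turned without WT 1 (0.10), without KO 1 (0.02) and with limma-voom (0.03). The genes whose log2 CPM was most like Mrc1 over the 7 libraries were Nudt1, F13a1 and Tbc1d31 (Pearson r 0.991, 0.989 and 0.965, given as a description). F13a1, which resident macrophages express, had 8.62 CPM in WT and 7.41 in KO (adjusted p = 0.681).

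Retnla (chr16:48842551-48844461), which encodes the secreted protein RELM-alpha, a marker of alternatively activated macrophages in the mouse that is also expressed in adipose tissue, had 212, 70 and 116 reads in WT libraries 1 to 3 and 288, 350, 346 and 265 in KO libraries 1 to 4. Every KO library lay above every WT library, as in 11.0% of all tested genes, and WT 2 was the lowest of the WT libraries. The means were 4.88 ± 2.31 CPM in WT and 12.1 ± 1.53 in KO (SD, n = 3 and 4). The log2 fold change was 1.31 ± 0.30 (SE, 95% interval 0.63 to 1.99), and it missed the threshold with edgeR (adjusted p = 0.0593). It passed without WT 3 (1.29, adjusted p = 0.0196), where 6.15% of genes were higher in KO, and without WT 1 (1.72, adjusted p = 0.027). With DESeq2 the adjusted p was 0.00109, with limma-voom 0.00368 and without the low-count filter 0.0194, while over the other alternatives and left-out libraries it ran up to 0.277.

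The promoter of Retnla (chr16:48842359-48842658, plus strand) is shown as that of the 1 gene that lay higher in KO.

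Retnla: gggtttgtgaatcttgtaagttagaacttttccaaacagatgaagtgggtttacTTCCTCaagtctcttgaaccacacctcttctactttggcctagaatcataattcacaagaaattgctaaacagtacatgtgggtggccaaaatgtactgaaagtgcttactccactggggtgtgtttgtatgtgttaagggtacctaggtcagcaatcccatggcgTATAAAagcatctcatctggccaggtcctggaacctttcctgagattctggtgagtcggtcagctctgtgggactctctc

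Retnla holds TATAAA 30 bases before the start, the spacing found in S100a8. On the strand of the gene and starting 20 to 40 bases before the start, this word occurs in 1.99% of promoters. It thus stands at the same place in a gene with fewer reads in KO and in a gene with more.

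Other genes of resident and alternatively activated macrophages spread in both directions. Of 16 on the list 14 were tested and 0 passed (3 higher and 2 lower at an unadjusted p under 0.05, and 2 higher without WT 3, Retnla and Timd4), with a median log2 fold change of 0.25. Folr2, a folate receptor of resident macrophages, had 26, 16 and 25 reads in WT and 7, 12, 7 and 10 in KO (log2 fold change -1.24, adjusted p = 0.0871). Timd4, a receptor for dying cells on long-lived resident macrophages, had 13, 8 and 15 against 19, 23, 38 and 20 (log2 fold change 1.10, adjusted p = 0.144). Cd163, the haemoglobin scavenger receptor, had 7.30 CPM in WT and 8.42 in KO (0.20, adjusted p = 0.643). Arg1, the arginase of alternatively activated macrophages in the mouse, had 13, 2 and 19 reads in WT and 1, 0, 0 and 1 in KO, under the filter. In the fit without the low-count filter it passed (log2 fold change -4.13, edgeR adjusted p = 0.0339), also without WT 2 (adjusted p = 0.00259) or WT 3 (-3.46, 0.00926), but not without WT 1 (0.0663) or any KO library (0.0868 to 0.108).

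Monocyte and inflammatory genes gave no call in the edgeR fit with all 7 libraries and the low-count filter. Of 10 monocyte genes 6 were tested and 0 passed (1 higher and 2 lower at an unadjusted p under 0.05), with a median log2 fold change of -0.61. Nr4a1, a factor of patrolling monocytes that muscle fibres also express, had 156 CPM in WT and 437 in KO (log2 fold change 1.49, adjusted p = 0.0586), and passed without WT 3 (2.06, adjusted p = 4.23e-05) and without the low-count filter (1.53, adjusted p = 0.012). Hp (haptoglobin) had 274, 7 and 137 reads in WT and 10, 10, 11 and 19 in KO (log2 fold change -3.37, adjusted p = 0.0844), with WT 2 below all KO libraries in reads, and passed without WT 3 (-3.30, adjusted p = 0.0365) and without the filter (-3.35, adjusted p = 0.0264). Of 13 inflammatory cytokine genes and regulators 5 were tested and 0 passed, with 0 at an unadjusted p under 0.05, and 2 passed without WT 3. These were Nfkbia, an inhibitor of NF-kappaB (1.43, adjusted p = 3.24e-05), and Tnfaip3, another brake on that pathway (-1.25, adjusted p = 0.000832), against 0.68 and -0.87 with WT 3. Tnf itself had 7, 7 and 2 reads in WT and 0, 0, 2 and 0 in KO. It was not tested and did not pass without the low-count filter (log2 fold change -3.05, edgeR adjusted p = 0.157). The groups overlapped in Il1b and Il6, also on few reads.

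**Figure D4:**
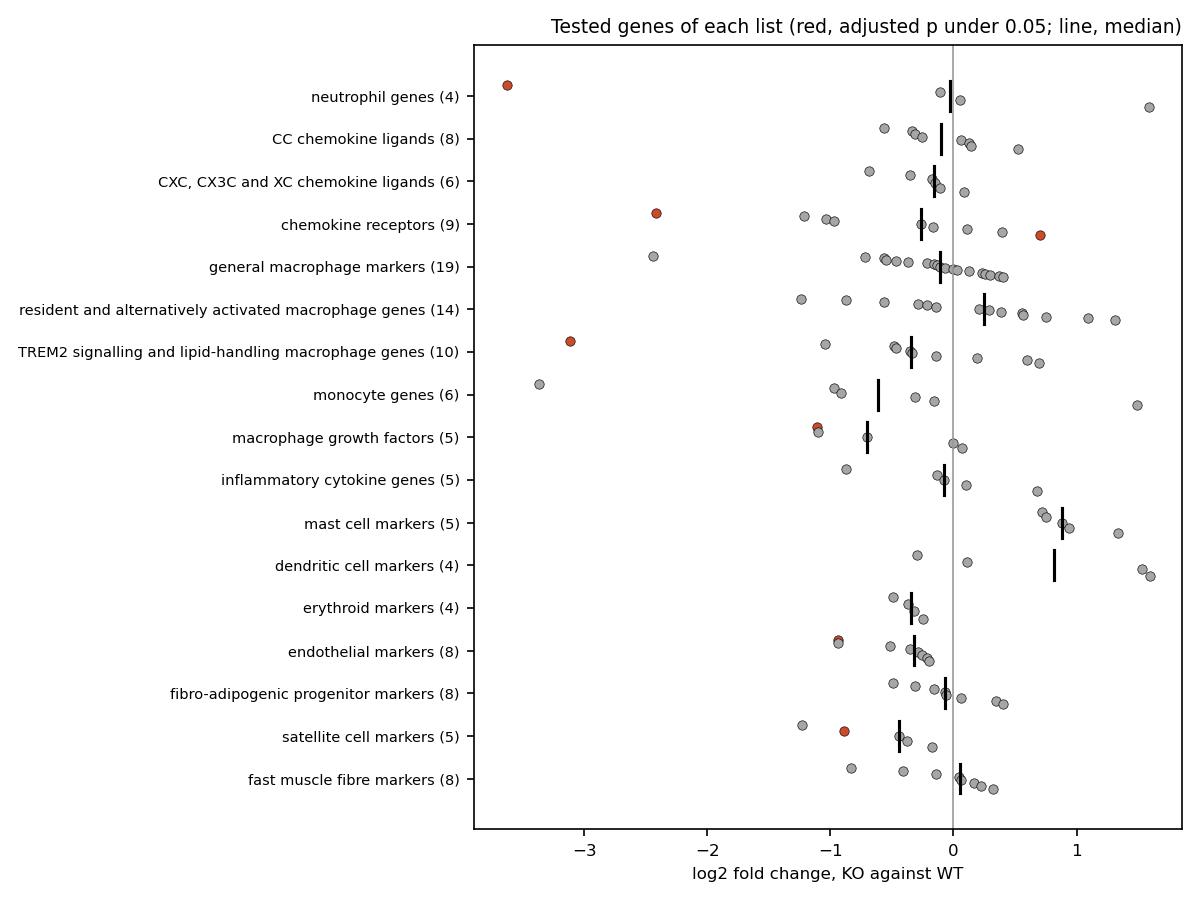
Log2 fold change of KO against WT (horizontal axis) of every tested gene in each list, with the number tested in brackets; red points passed an edgeR adjusted p of 0.05 and the black line is the list's median. The red points are S100a9, Cx3cr1, Ackr3, Trem2, Csf1, Kdr and Vcam1, and the 19 general macrophage markers hold none.

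Over the wider set of 152 myeloid and chemokine genes 83 were tested, with a median log2 fold change of -0.14. Of the 83, 1 was higher and 4 lower in KO, beside 0.964% and 1.85% of all tested genes. The 4 lower include S100a9, Trem2 and Cx3cr1, which entered the test through their WT libraries only. Of the 76 tested that are none of the 10 genes, 1 was higher (Ackr3) and 1 lower (Csf1), shares close to those over all genes. Groups did not overlap in 5 of these 76 with KO higher and in 6 with KO lower, below the 11.0% and 11.4% found over all genes. Without WT 3, 7 of 84 were higher and 8 lower, beside 6.15% and 6.55% of all genes, which is near the background.

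Per kilobase of the longest coding transcript, Retnla (8.14 CPM per kilobase) and Cd68 (7.60) were highest in WT, followed by S100a9 (2.40), S100a8 (1.95), Mrc1 (1.64), Ccl2 (1.38), Ccl7 (0.793), Trem2 (0.738), Adgre1 (0.248) and Cx3cr1 (0.143). Neighbours in this order lay within 1 SD of each other (the larger of both SDs), apart from the step from Trem2 to Adgre1, and Cd68 owes its place and its SD of 9.45 to WT 3. In KO the order began with Retnla (20.3), Mrc1 (1.48), Cd68 (1.39) and Adgre1 (0.324) and continued with S100a8 (0.216), S100a9 (0.183), Ccl2 (0.157), Trem2 (0.0813), Cx3cr1 (0.0255) and Ccl7 (0.0241). There Retnla stood apart from Mrc1 by far more than either spread, Cd68 lay above Adgre1 by more than 1 SD, and all other neighbours lay within 1 SD.

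Other cell types of the muscle were read from their own markers. T and NK cell markers had 0 of 10 genes tested and summed to 0.563 to 0.823 CPM in WT and 0.370 to 2.503 in KO. B cell markers had 0 of 5 tested and summed to 0.563 to 1.67 and 0.247 to 0.865 CPM. Mast cell markers, 5 of 7 tested and 0 past the threshold, summed to 2.92 to 7.68 CPM in WT and 6.80 to 13.4 in KO, with a median log2 fold change of 0.88 and 2 higher at an unadjusted p under 0.05, and Kit passed without WT 3 (1.06, adjusted p = 0.0187) and without the filter (1.35, adjusted p = 0.0358). Dendritic cell markers, 4 of 6 tested, had a median of 0.82 and sums of 9.45 to 14.9 and 11.7 to 14.6 CPM, with 0 past the threshold and 2 higher at an unadjusted p under 0.05. Of these, Cd209a (DC-SIGN) passed without WT 3 (1.87, adjusted p = 0.0114) and without the filter (1.56, adjusted p = 0.0476).

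The erythroid sum was 124.8 to 152.7 CPM in WT and 64.2 to 151.3 in KO, with 0 of 4 tested genes past the threshold and 0 at an unadjusted p under 0.05. The sum by library was 152.7, 124.8 and 144.2 in WT 1 to 3 and 151.3, 147.5, 80.34 and 64.15 in KO 1 to 4. S100a8 had 55 reads in WT 1 and 5 and 3 in KO 1 and KO 2, and S100a9 had 62, 4 and 1. Endothelial markers summed to 333.5 to 394.6 CPM in WT and 250.3 to 288.1 in KO, without overlap. All 8 had fold changes below 0, as had 7307 of 13974 tested genes with a symbol. Kdr, the VEGF receptor, was the 1 that passed (fell by 0.94 on the log2 scale, edgeR adjusted p = 0.0263), and its call held only without WT 3 when libraries were left out in turn (adjusted p 0.0591 to 0.098 without any other). Without WT 3, 4 of the 8 were lower, beside 6.55% of all tested genes. These added Cldn5 (-1.002, edgeR adjusted p = 0.0208), Tek (-0.33, 0.0385) and Cdh5 (-0.29, 0.0441). Satellite cell markers summed to 21.2 to 25.4 CPM in WT and 16.4 to 21.3 in KO, and Vcam1, an adhesion molecule also found on endothelium, fell by 0.89 (edgeR adjusted p = 0.0257), again held only without WT 3 (0.0522 to 0.0941 without any other). Pax7, the factor of quiescent satellite cells, had a log2 fold change of -1.23 (adjusted p = 0.0596) and passed without WT 3 (-1.04, adjusted p = 0.0416). Fibro-adipogenic markers had 0 of 8 past the threshold, with 0 at an unadjusted p under 0.05 and a sum of 679.2 to 860.5 against 670 to 919.5 CPM, and 1 of them, Lum (lumican), was lower without WT 3 (-0.44, adjusted p = 0.0218). The part of these cell types in the 10 genes was not tested.

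**Figure D5:**
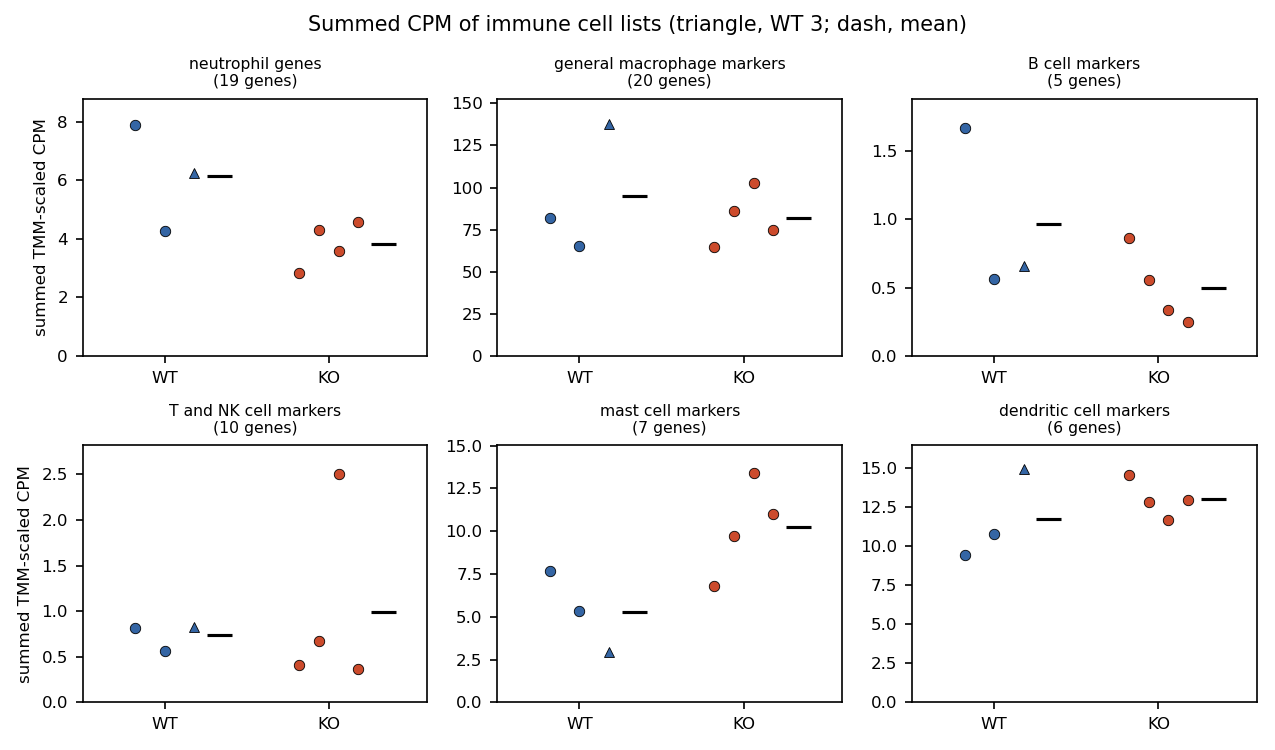
Summed TMM-scaled CPM (vertical axes) of 6 immune cell lists in each library; points are libraries, the triangle is WT 3 and the dash is the group mean. WT 3 is highest for the general macrophage markers, at 137.7 CPM, and KO 3 is highest for the T and NK cell markers, at 2.503 CPM.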

How the data were processed

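TA muscle RNA was sequenced in 3 WT and 4 mir-486 KO libraries, grouped by sample title. The authors deposited raw counts of reads per gene, as whole numbers without normalization. Per the submitters' processing notes, the tools were HTSeq 0.6.1, STAR 2.5.2b, Trim Galore 0.4.2 and CASAVA 1.8.2. Salmon, a stranded kit and column extraction appear in the methods, and Trizol in the labels. For the counts, the build, annotation and strand setting were not given in the sources used here. The 5 summary rows were left out: reads without a unique alignment (24.44% to 34.27% of reads in the table), without a feature (3.247% to 4.34%) and ambiguous ones (4.039% to 4.442%), with the others at 0. Symbols and positions came from GENCODE M21 (GRCm38) by identifier, matching 48349 of 48795 genes.

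The test was edgeR 4.0.16 in R 4.3.3 (glmQLFit and glmQLFTest on genotype after TMM and filterByExpr, minimum count 10), with Benjamini-Hochberg adjustment over 14002 genes at 0.05. All CPM were scaled by TMM. Dividing the log2 fold change by the square root of F gave its SE, and intervals are 95%. For the 3 genes under the filter the fit without a filter is given, with exact binomial intervals of the read ratio. Alternatives were median-of-ratios scaling, mitochondrial genes left out, no filter, DESeq2 1.42.0, robust shrinkage, limma 3.58.1 voom with quality weights, each library left out, and a replicate block. The main test followed the count scale, and DESeq2, used in the study, is an alternative. The steps were tested on simulated counts. No 2 libraries agreed within sampling noise (lowest chi-square per degree of freedom 6.99).

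The 10 genes and the 20 lists were chosen with earlier results of these data known. Named genes are the 10, up to 4 with the smallest p in each list, those past the threshold, the 3 most like Cd68 and Mrc1, and Ank1. Other list members that are named were chosen for their role or after their values were seen.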

Additional observations from a re-analysis of the deposited data

Results flagged for a closer look

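Within the 4 KO libraries, 3 of 73 genes examined had 1 library far from the other 3, and chance marks about 1 in 20 groups. Ccr2 was at 1.46 CPM in KO 3, against 0.576 in the next and 0.489 in the lowest KO library. Hp was at 0.781 CPM in KO 4, against 0.411 in the next. Vcam1 was at 1.79 CPM in KO 2, against 2.14 in the next. None of the 10 genes was among them, and groups of 3 were not examined, so WT 3 could not be marked this way for Cd68 or Ccl2.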

How the results depend on the processing

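The number of the 10 genes lower in KO was 3 with every library, 6 with no low-count filter and 0 with a replicate block, and ran from 0 to 3 with 1 library left out, being 0 without any single KO library. The number higher was 0, and 1 with no filter, DESeq2 or limma-voom, and 0 to 1 with a library left out. For the wider set, higher calls were 1 with every library, 3 with no filter, 5 with DESeq2, 12 with limma-voom, 0 with the block and 0 to 7 with a library left out. Lower calls were 4, and 10, 7, 8, 0 and 0 to 8 in the same order. Over all genes, edgeR called 135 higher and 259 lower, DESeq2 453 and 665, limma-voom 1119 and 1228, no filter 193 and 364, and 873 and 929 without WT 3, against 10 to 21 and 10 to 27 without a KO library, where the lost calls of the 10 genes have fewer samples behind them. Single values that changed sign were Mrc1, at 0.029 with limma-voom and from -0.34 to 0.10 with a library left out, and Adgre1, from -0.0041 to 0.64. Of 136 values of the 10 genes under an alternative, 94 kept direction and side of the threshold, 33 lost and 5 gained the call and 4 turned. DESeq2 gave no adjusted p for Cd68. No source says that WT and KO libraries of the same number are paired, and their deviations showed no common pairing, with correlations of -0.404, 0.355 and -0.172, and the replicate block left 0 genes called over the whole table, 0 of the 10 among them. Depth limits S100a8, S100a9, Ccl2, Ccl7, Cx3cr1 and Trem2, which had 2 to 13 reads in the 4 KO libraries together.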

Other observations

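KO 3 held most of the lymphocyte-related reads of the KO group. Nkg7, a granule protein of cytotoxic T and NK cells, had 19 reads in KO 3 and at most 1 in any other library. Ccl5, a chemokine of activated T cells, had 29 reads in KO 3 and at most 5 elsewhere, and Cxcl9, an interferon-gamma target that attracts them, had 29 and at most 6. Cd8a had 7 reads in KO 3 against at most 2, Cd2 had 10 against at most 5, and Cxcr6 had 8 against at most 2. Adgre1 (47 reads) and Ccr2 (39) were also highest among the KO libraries in KO 3. Of the genes lower in KO, Cx3cr1 (5 reads) was highest there among the KO libraries, S100a9 (4) and Ccl7 (1) tied the highest, and S100a8 (3), Ccl2 (1) and Trem2 (0) did not. These genes were chosen after their values were seen, 1 library is no replicate, and no test was made.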
